A study of Mus musculus with 4 samples.

Results

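Circadian clock genes were described here as every probe set whose annotated gene symbol was Arntl, Clock, Per1, Per2, Per3, Cry1, Nr1d1, Nr1d2, Dbp or Tef. These 10 genes, of 18193 with a single symbol on the array, were read by 25 probe sets. Messenger RNA was measured on Affymetrix mouse expression arrays in whole dorsal skin at postnatal day 16. One group was wild type (n = 2 animals, 1 array each), and the other was bitransgenic and overexpressed deltaNp63alpha, the p63 isoform of basal keratinocytes (n = 2 animals, 1 array each). The labels are silent on the promoter that drives the transgene, the inducing treatment, the strain, the sex, the litter and the hour at which skin was taken. Values are probe set signals on a linear scale, written in the order of replicates 1 and 2, and differences are bitransgenic minus wild type on a scale of log2(signal + 16) with the standard error (SE) of limma's moderated fit.

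The mammalian clock is a transcriptional feedback loop that runs in nearly every cell, skin cells included. ARNTL (also called BMAL1) and CLOCK form a heterodimer that binds E-boxes and switches on the Per, Cry, Nr1d and PAR bZIP genes. PER and CRY proteins then block that heterodimer, NR1D1 and NR1D2 (the REV-ERB receptors) repress Arntl through ROR elements, and DBP and TEF bind D-boxes in further genes. Transcripts of Arntl therefore peak at about the opposite time of day to those of Dbp, Nr1d1 and Per3. In skin, clock genes cycle in the epidermis and the dermis, and their level in the hair follicle changes with the hair growth cycle.

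The windows before the transcription start show which of these elements lie next to the members' starts. Of the 10 members, 9 (all but Per2) had a window in the RefSeq promoter table (build GRCm38.p6, 300 bases, from 250 before to 50 after a start), and with alternative starts there were 14 windows. Both strands were searched for the E-box CACGTG, the related element CACGTT, the D-box TTATGTAA and the ROR element TAGGTCA, none of which can contain another. The E-box was in windows of 3 members, Per1, Cry1 and Tef. By window this was 4 of 14, against 7.15% of 32851 windows of all genes. CACGTT was in the windows of Cry1 and Nr1d1 (2 of 14, against 4.68% of all windows). The D-box stood at 2 places in that of Per3 (1 of 14, against 0.938%). The ROR element was in 1 of the windows of Arntl (1 of 14, against 2.61%). Clock, Nr1d2 and Dbp held none of these letters in their windows. The 250 bases before the start are given 5′ to 3′ on the gene's strand for the 5 members whose arrays did not overlap between genotypes (Dbp, Tef, Per3, Nr1d1 and Cry1) and for Per1, with matches to the searched letters in capitals (AACGTG is CACGTT on the other strand). For Arntl the line holds 27 bases around its match, which begins 31 bases into the transcribed strand. Per1 and Tef have a second window that is not printed.
Dbp, chr7:45704997-45705246, plus strand: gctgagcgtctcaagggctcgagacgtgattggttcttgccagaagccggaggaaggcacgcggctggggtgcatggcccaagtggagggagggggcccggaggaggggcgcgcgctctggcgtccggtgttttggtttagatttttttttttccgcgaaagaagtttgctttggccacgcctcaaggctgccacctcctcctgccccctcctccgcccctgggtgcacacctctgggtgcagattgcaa
Tef, chr15:81802423-81802672, plus strand: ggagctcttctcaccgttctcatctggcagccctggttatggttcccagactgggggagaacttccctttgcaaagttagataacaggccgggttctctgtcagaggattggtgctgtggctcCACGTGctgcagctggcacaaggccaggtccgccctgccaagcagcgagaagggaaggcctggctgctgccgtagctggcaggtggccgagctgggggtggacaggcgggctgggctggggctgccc
Per3, chr4:151044666-151044915, minus strand: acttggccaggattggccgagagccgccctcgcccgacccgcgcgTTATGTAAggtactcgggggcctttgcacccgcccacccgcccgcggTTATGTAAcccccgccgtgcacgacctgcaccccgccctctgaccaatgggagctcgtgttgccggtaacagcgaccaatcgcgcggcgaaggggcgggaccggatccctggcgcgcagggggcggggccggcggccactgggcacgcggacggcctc
Nr1d1, chr11:98775378-98775627, minus strand: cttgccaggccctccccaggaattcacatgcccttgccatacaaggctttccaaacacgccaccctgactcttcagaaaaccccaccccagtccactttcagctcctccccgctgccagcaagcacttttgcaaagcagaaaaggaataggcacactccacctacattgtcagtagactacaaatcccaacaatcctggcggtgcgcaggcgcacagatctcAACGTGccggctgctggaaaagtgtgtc
Cry1, chr10:85185055-85185304, minus strand: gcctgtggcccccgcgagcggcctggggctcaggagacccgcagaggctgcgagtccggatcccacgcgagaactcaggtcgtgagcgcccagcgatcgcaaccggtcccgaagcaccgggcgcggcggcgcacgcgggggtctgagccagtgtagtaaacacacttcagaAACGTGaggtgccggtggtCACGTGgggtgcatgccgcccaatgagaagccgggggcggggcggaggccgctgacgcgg
Per1, chr11:69098699-69098948, plus strand: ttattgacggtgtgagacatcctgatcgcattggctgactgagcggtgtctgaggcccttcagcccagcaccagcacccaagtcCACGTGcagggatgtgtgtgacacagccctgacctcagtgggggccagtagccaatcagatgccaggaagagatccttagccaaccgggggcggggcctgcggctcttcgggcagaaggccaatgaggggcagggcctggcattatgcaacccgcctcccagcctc
Arntl, chr7:113207531-113207557, plus strand: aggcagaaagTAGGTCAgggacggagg
In the printed windows the E-box stood 60 bases before the start of Cry1, 127 before that of Tef and 166 before that of Per1. Distances are counted to its first base. In the Tef window that is not printed, a further E-box stood 138 bases before the other start. The D-boxes of Per3 began 205 and 158 bases before its start. A match describes the letters only, and elements outside these windows were not searched.

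None of the 10 clock genes passed the test for a difference between genotypes. In limma's fit of 13070 genes, 0 members had an adjusted p under 0.05 (Benjamini-Hochberg), beside 2.33% of all genes. At an unadjusted p under 0.05 there was 1 member, Dbp, beside 16.7% of all genes, and its p was 0.0573 once _x_at and _s_at probe sets were left out. The lowest values were those of the output factor Dbp, 2.06-fold lower in bitransgenic skin, and of Per2, 1.56-fold lower, and the highest was that of Clock, 1.63-fold higher. By sign, 6 members were lower (Dbp, Per2, Nr1d1, Tef, Per3 and Nr1d2) and 4 were higher (Clock, Arntl, Cry1 and Per1), beside 49.5% of all genes that were lower, and the median was -0.41 against 0.0053 over all genes tested. Signals did not overlap between genotypes for 5 of the 10, which compares with 48.8% of all genes. Of these 5, 4 were lower (24.9% of all genes were lower without overlap) and 1, Cry1, was higher (23.9%). A miss of the threshold does not show equal levels. With 200 changed genes simulated at the spread that limma fitted, the gene fit recovered 0.597% of changes of 1 (log2) and 30.6% of changes of 2. Recovery after adjustment depends on how many genes change. The fit of the real arrays called 304 genes, so these 2 shares need not hold for it. For all 10 members, each by its brightest probe set, the 95% interval of the gene fit lay within a 4-fold difference in either direction. In the fit of single probe sets this did not hold throughout. There the interval of the brighter Dbp probe set began at 0.248, and that of 1 dimmer Clock probe set ended at 6.16-fold.

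**Figure D1:**
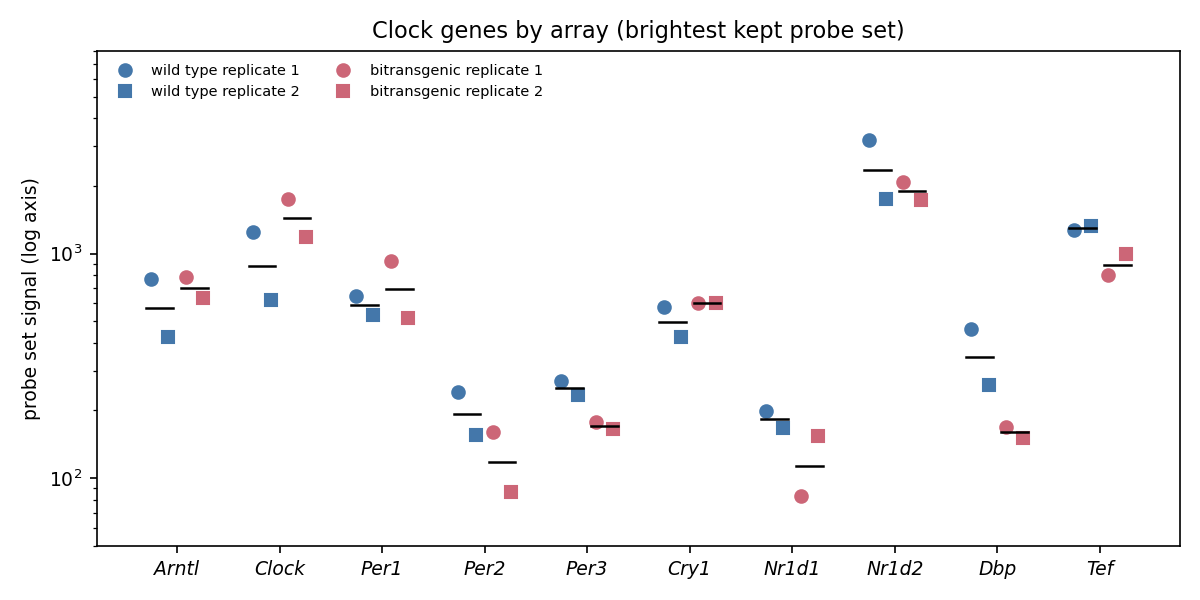
Probe set signal (log axis) of the 10 clock genes, each by its brightest kept probe set, on the 2 wild type arrays (blue) and the 2 bitransgenic arrays (red); circles are replicate 1, squares replicate 2, and short lines the geometric mean of a group. Both red points lie below both blue points for Per3, Nr1d1, Dbp and Tef and above them for Cry1, and the points overlap for the other 5 genes.

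Both activators had higher values in bitransgenic skin, within the spread of the arrays. Arntl read 771.8 and 423.2 in wild type skin against 785.7 and 632.8 in bitransgenic skin. Wild type replicate 2 was the low array, and the groups overlapped. The difference was 0.29 ± 0.36 (1.23-fold, 95% interval 0.671 to 2.24; limma adjusted p = 0.75). Its second probe set was dimmer, with 69.2 and 98.8 against 145.1 and 176.9. There both bitransgenic arrays were above both wild type arrays (0.83 ± 0.39, adjusted p = 0.474 over 27022 probe sets). Clock, the partner of ARNTL, read 1245.8 and 622.4 against 1755.3 and 1186.1 (0.70 ± 0.39, 95% interval 0.842 to 3.14-fold, adjusted p = 0.448). Bitransgenic replicate 1 was the highest array and wild type replicate 2 the lowest, with the remaining arrays between them. The other 3 Clock probe sets had values of 0.10, 0.095 and 0.86, so all 6 probe sets of the activators had positive values and none passed. Without wild type replicate 2, these 3 turned to -0.42, -0.17 and -0.093, and the brighter Arntl probe set to -0.13. The brightest Clock probe set (0.21) and the dimmer Arntl probe set (1.05) stayed positive.

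Among the repressors the genes were divided by sign. Per2, whose protein blocks the activators, read 241.8 and 155.0 in wild type skin against 160.2 and 86.7 in bitransgenic skin. The second wild type array and the first bitransgenic array were almost level, so the groups overlapped. The difference was -0.64 ± 0.43 (1.56-fold lower; adjusted p = 0.526), and the other 2 Per2 probe sets had values of -0.35 and -0.68. Per3, a PER protein that is not essential to the loop, read 269.9 and 234.4 against 177.5 and 165.0. Both bitransgenic arrays were below both wild type arrays, and the arrays of a genotype lay close together. The difference was -0.52 ± 0.32 (1.43-fold lower, 95% interval 0.41 to 1.19; adjusted p = 0.494). Of the 5 kept Per3 probe sets, 4 had negative values, from -0.78 to -0.38, and 1 had a value of 0.087. The sixth Per3 probe set was the only member probe set under the filter on dim values, with signals of 38.7 and 41.7 against 7 and 24.1.

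Per1, the PER gene that also responds quickly to glucocorticoids and cAMP, did not follow Per2 and Per3 in sign. Its only probe set read 648.0 and 534.8 in wild type skin against 924.3 and 517.9 in bitransgenic skin. The bitransgenic arrays held both the highest and the lowest value (0.23 ± 0.35, adjusted p = 0.812). Without bitransgenic replicate 1 the value turned to -0.18. Cry1, which codes for the strongest repressor of the loop, read 576.5 and 426.5 against 605.2 and 603.7. The bitransgenic arrays were almost identical and lay just above the wild type arrays (0.28 ± 0.29, 1.21-fold, adjusted p = 0.702).

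Both REV-ERB genes had lower values in bitransgenic skin, and neither passed. Nr1d1 read 199.9 and 166.9 in wild type skin against 83.6 and 153.4 in bitransgenic skin. The groups did not overlap, but bitransgenic replicate 2 was close to wild type replicate 2 and the difference came mostly from bitransgenic replicate 1. It was -0.61 ± 0.40 (1.53-fold lower, adjusted p = 0.515), with -1.12 between the arrays of replicate 1 and -0.11 between those of replicate 2. Nr1d2 read 3188.7 and 1742.3 against 2081.4 and 1730.0. Wild type replicate 1 stood above the other 3 arrays, which were similar. The difference was -0.31 ± 0.34 (adjusted p = 0.713) and turned to 0.12 without wild type replicate 1. The second Nr1d2 probe set followed the replicate number instead, with 56.6 and 233.4 against 69.4 and 167.2 (-0.11 ± 0.69).

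Of the PAR bZIP output factors, Dbp had the lowest value of all members and Tef a smaller difference. Dbp, a transcript of large daily amplitude in most tissues, read 461.8 and 258.5 in wild type skin against 168.3 and 151.4 in bitransgenic skin. Both bitransgenic arrays were below both wild type arrays, and the wild type arrays differed more from each other than the bitransgenic arrays did. The difference was -1.04 ± 0.38 (2.06-fold lower, 95% interval 0.256 to 0.919; unadjusted p = 0.032, adjusted p = 0.242 in limma's fit of all genes). Its other probe set read 183.7 and 139.3 against 67.7 and 95.5, again without overlap (-0.87 ± 0.39). The brighter probe set carries the suffix _s_at, which marks probes that can read more than 1 transcript. With _x_at and _s_at probe sets left out, Dbp had a value of -0.87 and an unadjusted p of 0.0573. The value of Dbp was -0.64 when wild type replicate 1 was left out and -1.44 when replicate 2 was, and its adjusted p in limma's gene fit ran from 0.0738 to 0.623 over all alternatives.

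Tef read 1272.4 and 1326.6 against 800.8 and 995.5 by its brightest probe set. The wild type arrays agreed closely and both bitransgenic arrays were lower (-0.53 ± 0.26, 1.45-fold, 95% interval 0.452 to 1.06; adjusted p = 0.369). A second, dim probe set had a value of -0.38, with 75.2 and 69.3 against 48.6 and 54.8. The third, which also has the suffix _s_at, went the other way, with 44.9 and 31.4 against 79.6 and 107.0 (1.01 ± 0.41, unadjusted p = 0.0444, adjusted p = 0.391). The mean of the 3 Tef probe sets gave 0.032, so the lower Tef value rests on the choice of the brightest one.

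Every probe set of the members was also tested by itself. Of the 25, 24 were kept by the filter and 0 passed in limma's fit of 27022 probe sets, where 0.762% of all probe sets did (0.207% higher and 0.555% lower). At an unadjusted p under 0.05 there were 2 (the _s_at probe sets of Dbp and Tef), beside 12.2% of all probe sets. Values were negative for 14, beside 49.3% of all probe sets, and positive for 10. The arrays of the genotypes did not overlap for 11 of the 24, 8 lower and 3 higher, beside 43.1% of all probe sets (21.7% lower and 21.4% higher). Per2, Nr1d2 and Dbp had negative values at every kept probe set, Arntl and Clock positive ones, and Per3 and Tef had 1 probe set each against the rest.

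**Figure D2:**
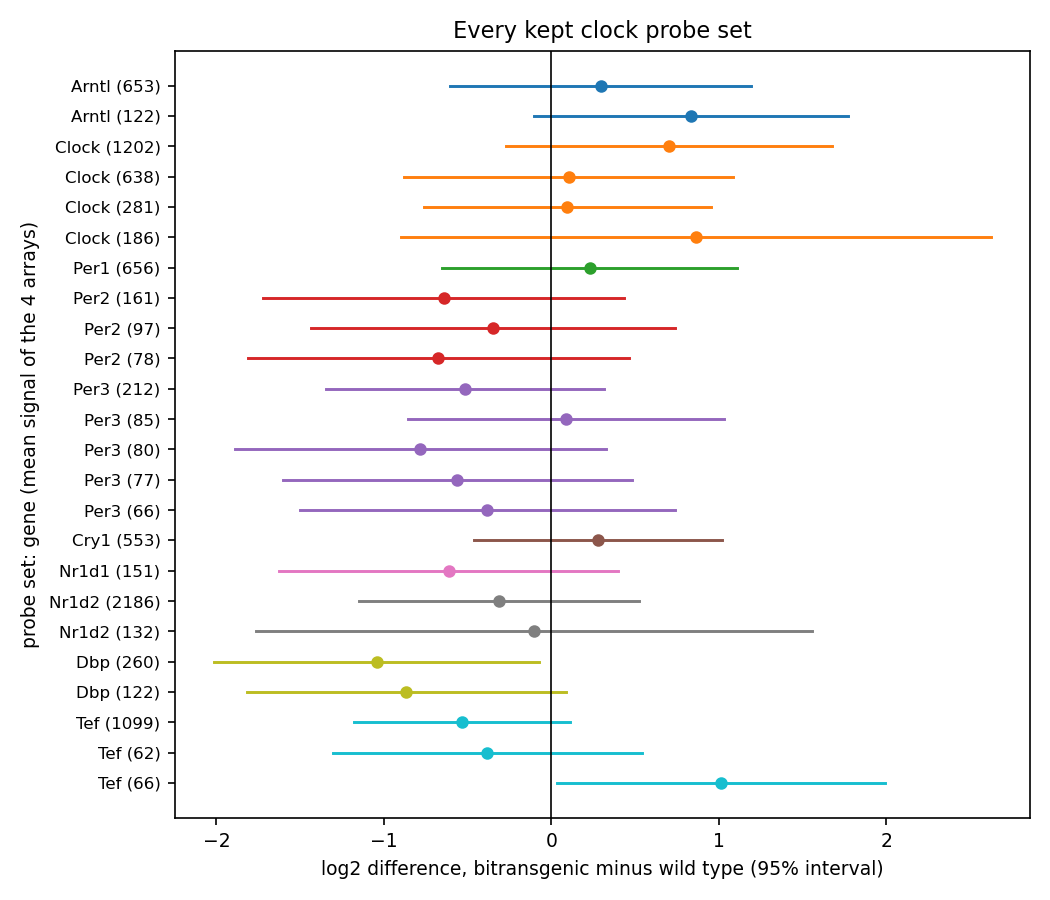
Log2 difference (bitransgenic minus wild type) of the 24 kept clock probe sets with 95% intervals from limma, coloured by gene; the number after each name is the mean signal of the 4 arrays. All intervals cross 0 except those of the brighter Dbp probe set (-1.04) and the _s_at probe set of Tef (1.01), neither of which passed after adjustment.

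The arrays within a genotype differed in the clock genes about as much as the genotypes did. In wild type skin replicate 2 was below replicate 1 for 9 of the 10 members, all but Tef, with a median difference of -0.51, while over all genes tested 51.0% were below and the median was -0.013. In bitransgenic skin replicate 2 was below replicate 1 for 8 of 10, all but Nr1d1 and Tef, with a median of -0.20 against 0.076 over all genes. For 5 members the 2 wild type arrays were further apart than the means of the genotypes, as they were for 53.3% of all genes. For 7 members at least 1 pair of arrays within a genotype was, and the exceptions were Per3, Dbp and Tef. The share of all genes with this is not given here, and cannot be under the 53.3% for the wild type pair alone. Because clock transcripts rise and fall through the day and the hour of sampling is not known, hour, animal and genotype cannot be told apart in these 4 arrays.

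Clock genes outside the set had values in both directions and none passed. Of 21 listed, 19 were named on the array and 16 passed the filter. In limma's fit of all genes 0 had an adjusted p under 0.05, beside 2.33% of all genes. At an unadjusted p under 0.05 there was 1, beside 16.7%. Values were positive for 7 and negative for 9, beside 49.5% negative over all genes, with a median of -0.095. Nfil3, a repressor that competes with DBP and TEF at D-boxes, read 1602.6 and 1890.5 in wild type skin against 1014.2 and 726.4 in bitransgenic skin. Both bitransgenic arrays were below both wild type arrays (-1.01 ± 0.28, 2.01-fold, adjusted p = 0.135). Hlf, the third PAR bZIP factor, read 220.0 and 151.0 against 82.9 and 139.5 (-0.68 ± 0.40, adjusted p = 0.471), also without overlap. Cry2, the second cryptochrome, read 363.9 and 336.5 against 253.9 and 281.5 (-0.37 ± 0.30, adjusted p = 0.614).

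Further genes of this list had values of either sign. Bhlhe40 and Bhlhe41 (DEC1 and DEC2), which compete with the activators at E-boxes, had values of 0.48 ± 0.25 and 0.79 ± 0.45 without overlap (adjusted p = 0.416 and 0.452). Ciart, a repressor with a strong daily rhythm, and Npas2, a relative of Clock, had values of 0.12 and 0.091 with overlap. Prkaa1 and Prkaa2, the catalytic subunits of AMP kinase, which marks CRY proteins for breakdown, had values of -0.71 ± 0.30 and -1.55 ± 0.67 (adjusted p = 0.317 and 0.321). The 4 signals of Prkaa2 were 674.1 and 145.0 in wild type skin against 105.0 and 91.8 in bitransgenic skin, so 1 wild type array stood far above the rest. Without wild type replicate 2, Prkaa2 passed (-2.60, adjusted p = 0.0127). Nfil3, Prkaa1 and Prkaa2 were named by their p values, and the other genes of the list after their values were seen.

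Among 14 listed clock output genes, of which 11 were tested, 1 fell and 0 rose, beside 1.58% and 0.75% of all genes. This was Fmo2, a flavin monooxygenase, with 728.8 and 557.8 in wild type skin against 169.5 and 168.3 in bitransgenic skin. The bitransgenic arrays were nearly equal and far below both wild type arrays (-1.82 ± 0.31, 3.54-fold, adjusted p = 0.0423). Fmo2 missed the threshold when wild type replicate 1 was left out (adjusted p = 0.0647), as it did for bitransgenic replicate 1 (0.198) or 2 (0.184), with no filter (0.0675) and with the mean of its probe sets (0.131). Pdk4, a mitochondrial kinase that limits glucose oxidation, read 3932.7 and 3281.9 against 1300.8 and 1869.6 (-1.20 ± 0.27, adjusted p = 0.0916). Usp2, a deubiquitinase with a strong daily rhythm, read 1515.1 and 1024.4 against 610.8 and 802.4 (-0.82 ± 0.31, adjusted p = 0.256). Wee1 and Nampt, a cell cycle kinase and an enzyme of NAD synthesis that are direct E-box targets, had values of 0.19 and -0.016. Lonrf3 read 270.9 and 278.8 against 755.6 and 428.0 (1.01 ± 0.36, adjusted p = 0.23). Elovl3, a fatty acid elongase that is also a sebaceous gland marker, read 1887.8 and 2878.4 against 11897.4 and 2030.8, and passed when bitransgenic replicate 2 was left out (2.34, adjusted p = 0.0494). The median of the 11 was 0.19, with 6 positive and 5 negative values. In limma's fit 4 of the 11 had an unadjusted p under 0.05, beside 16.7% of all genes. Without overlap, 4 were lower and 2 higher, beside 24.9% and 23.9% of all genes. Genes other than Fmo2 were named here after their values were seen.

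**Figure D3:**
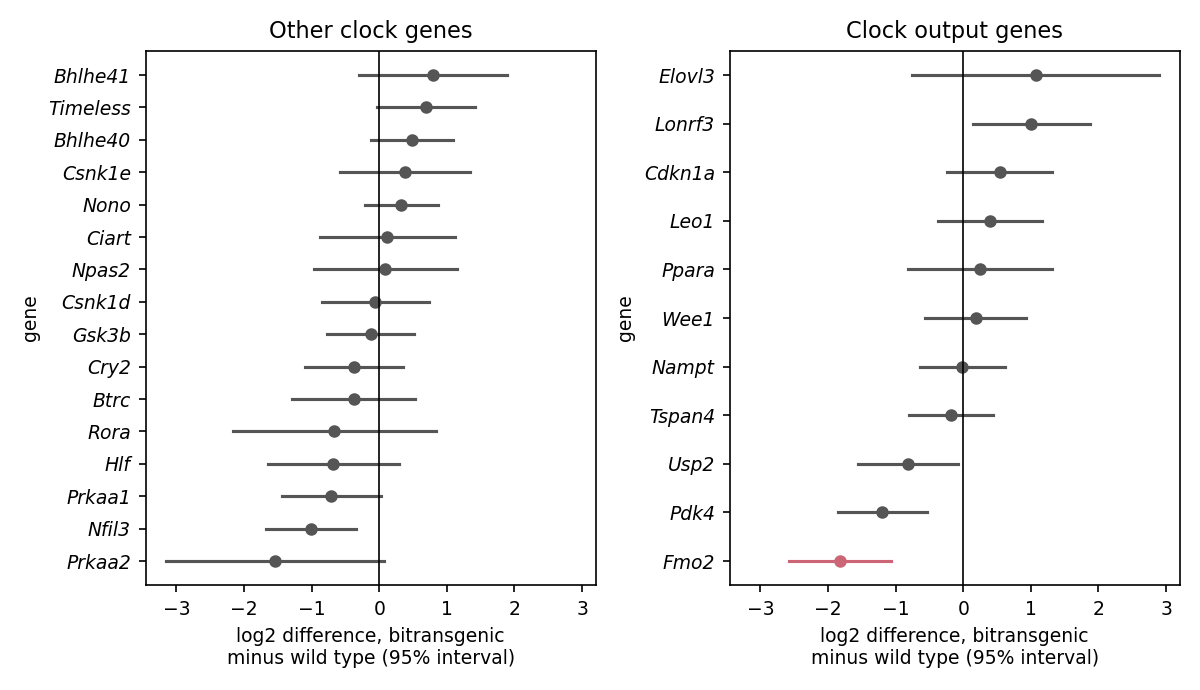
Log2 difference (bitransgenic minus wild type) with 95% intervals from limma for the 16 tested clock genes outside the set (left) and the 11 tested clock output genes (right), sorted by value. The red gene, Fmo2 at -1.82, is the only one with an adjusted p under 0.05.

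Per1 and several output genes also answer to signals other than the clock, and genes of those signals were read alongside. Of 9 glucocorticoid-responsive genes 0 passed in limma's fit, beside 2.33% of all genes, and 2 had an unadjusted p under 0.05, beside 16.7%. Their median was -0.68, and 6 values were negative, beside 49.5% of all genes. Tsc22d3 (GILZ), an anti-inflammatory target of the glucocorticoid receptor, read 2864.3 and 3701.0 in wild type skin against 834.2 and 1985.1 in bitransgenic skin (-1.33 ± 0.42, adjusted p = 0.182). Both bitransgenic arrays were lower. Cdkn1c, a cell cycle inhibitor, read 1127.8 and 595.2 against 123.0 and 235.3 (-2.16 ± 0.45, adjusted p = 0.0708), and passed without wild type replicate 2 (-2.61, adjusted p = 0.0194). Zbtb16 had a value of -0.85 ± 0.40 (adjusted p = 0.359), while Fkbp5, another receptor target, had 0.48 with overlap. Fkbp5 was not among the 3 genes with the smallest p and was chosen later. Of the 9 genes, 5 were lower without overlap and 0 higher, beside 24.9% and 23.9% of all genes. Of 6 tested immediate early genes 0 passed, 0 had an unadjusted p under 0.05, and none had signals without overlap. The shares over all genes were 2.33%, 16.7% and 48.8%. Fos, Egr1 and Crem had values of 0.78 ± 0.45, -0.39 ± 0.32 and 0.38 ± 0.34, and Fos passed without wild type replicate 1 (1.45, adjusted p = 0.0454).

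Marker genes of the cell types of skin were read on the same arrays. In bulk skin, fewer cells of a type and less RNA per cell cannot be told apart. Skin was recognisable on every array, with Krt5 and Krt14 of basal keratinocytes between 19571.0 and 36167.5 and no genotype difference past the threshold. Of the other keratinocyte genes, Krt1 was higher (1.58, limma adjusted p = 0.111) and Lor lower (-1.15, adjusted p = 0.247), both without overlap. Krt10 and Col17a1 overlapped (-0.27 for each). Of 4 Trp63 probe sets, 2 read 161.3 to 837.8 in wild type and 4644.0 to 15246.7 in bitransgenic skin. In limma's fit of all 45037 probe sets their adjusted p was 0.0613 and 0.0591 (unadjusted 0.000169 and 0.000156). That fit has no filter, so it adjusts over more probe sets than the fit of 27022 used for the members. Their adjusted p in the filtered fit is not given here. The remaining Trp63 probe sets had values of -0.037 and -0.33. Of 8 skeletal muscle markers 6 fell (median -2.98), beside 1.58% of all genes. Their summed signal was 195677 and 79010 in wild type against 18483 and 22065 in bitransgenic skin. The muscle sum was highest in wild type replicate 1, the array with the highest Dbp, Per2, Per3, Nr1d1 and Nr1d2. Tef was highest in wild type replicate 2, and Arntl, Clock, Per1 and Cry1 in bitransgenic replicate 1. From bitransgenic replicate 1 to 2 the muscle sum rose, as did Nr1d1 and Tef, while the other members fell. Of 12 hair shaft and inner root sheath genes 8 fell (median -5.44), with sums of 148495 and 241650 against 1528 and 19526. Of 5 fat cell and 5 dermal fibroblast genes none passed, and their medians were -1.06 and -1.01. All were lower without overlap, beside 24.9% of all genes. The fat cell sum was 66819 and 58774 in wild type against 30138 and 38527 in bitransgenic skin. The fibroblast sum was 128094 and 112382 against 57386 and 75340. Like the muscle sum, both were highest in wild type replicate 1 and rose from bitransgenic replicate 1 to 2. Immune cell genes had a median of 0.96 (4 of 5 higher), cell division genes 0.96 (5 of 5 higher), keratinocyte genes -0.15, sebaceous gland genes -0.13 and endothelial genes 0.0077, with 0 called in each. The immune sum was 8537 to 12599 and 16634 to 29677, and that of cell division 2942 to 8508 and 8726 to 10905. No listed marker of these groups was at 0 on every array. The part of muscle, fat, dermis or hair in the clock gene values was not tested.

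**Figure D4:**
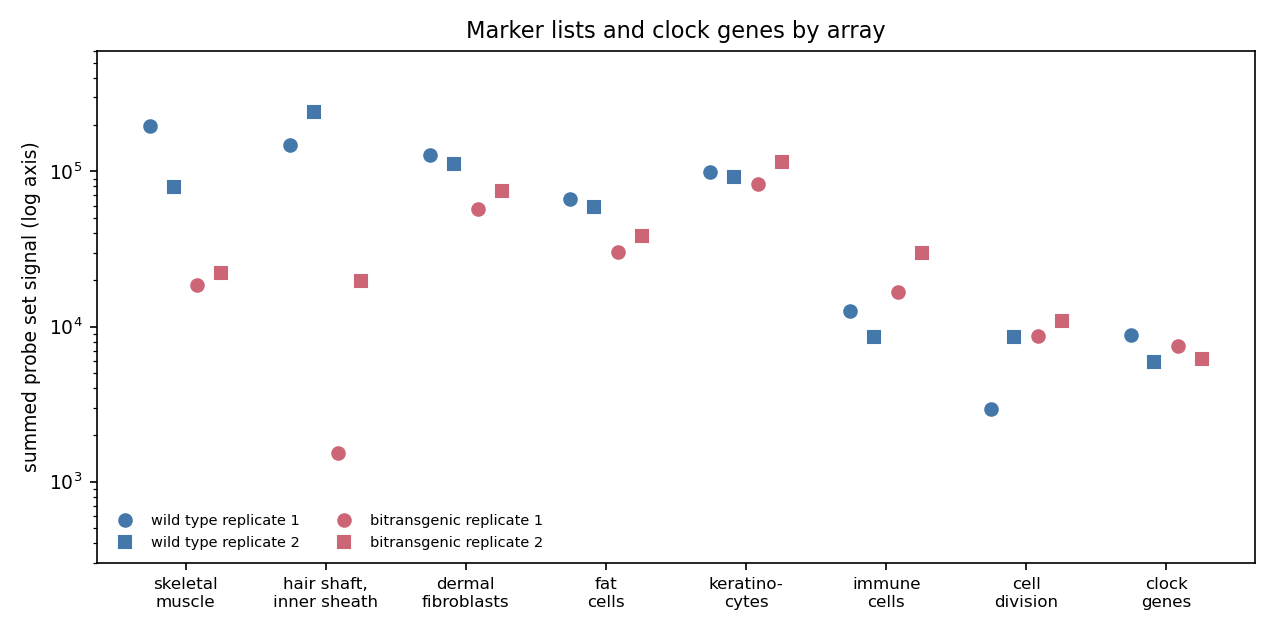
Summed probe set signal (log axis) of marker genes for the cell types of skin, and of the 10 clock genes, on each array; blue is wild type, red bitransgenic, circles replicate 1 and squares replicate 2. Muscle, hair, fibroblast and fat sums are lower on both bitransgenic arrays. The clock sums overlap (8877 and 5891 against 7542 and 6223), but they add genes whose differences have opposite signs. Nr1d2 is the largest signal in the clock sum on every array.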

How the data were processed

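Per the labels' protocols, total RNA of dorsal skin was taken up in TRIzol, cleaned on RNeasy columns and labelled with biotin. The authors deposited 1 signal per probe set, an array intensity on a linear scale. Per the submitters' processing notes, MAS5 and affy were used, with versions and roles not given in the sources used here. The trimmed mean of every deposited array was 500.0 (2% cut at each end), so values are relative to the rest of the array, and no detection calls were used.

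Of 45101 probe sets 64 were controls. Gene symbols came from the platform annotation, and 34741 of 34945 probe sets with 1 symbol matched RefSeq (GRCm38.p6) by Entrez identifier, with 0 symbols changed. Another 932 with several symbols and 9160 with none stayed unnamed. Signals were taken as log2(signal + 16), which shrinks folds of dim genes. Probe sets with a mean at or above the 40th percentile (log2 6.19, a signal of 57.0) were kept, 27022 in all, and the brightest stood for its gene (13070 genes). The test was limma 3.58.1 under R 4.3.3 (eBayes with an intensity trend, 2 residual and 4.45 prior degrees of freedom), run over the whole table, with Benjamini-Hochberg adjustment at 0.05. The test was checked on simulated data (20 draws with 200 changed genes, 4.84% of calls false).

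The members and all gene lists were chosen with earlier results of these data known. Named were all members, and per list the genes past the threshold or else the 3 with the smallest p, beside others marked as chosen later. Listed genes that the annotation did not name are not analysed here. Alternatives were the pseudocount, the scaling, the filter, the trend, the probe set rule, probe suffixes, a replicate block and leaving out each array. The number of arrays limits the precision.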

Additional observations from a re-analysis of the deposited data

How the results depend on the processing

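No member gene or member probe set passed limma's threshold in either direction under any alternative run. Signs turned for 4 member gene values, 11 probe set values and 1 other gene. Tef had 0.032 with the mean of its kept probe sets. The others turned where 1 array was left out. Over the 4 arrays left out in turn, Arntl ran from -0.13 (without wild type replicate 2) to 0.72, Nr1d2 from -0.74 to 0.12 (without wild type replicate 1), Per1 from -0.18 (without bitransgenic replicate 1) to 0.64, and Egr1, outside the set, from -0.79 to 0.0017. The brightest probe sets of these members had the same ranges. Of the other probe sets, 3 of Clock ran from -0.42 to 0.63, -0.17 to 0.36 and -0.093 to 1.82, the second of Nr1d2 from -0.996 to 0.78, 1 of Per2 from -0.81 to 0.11 and 1 of Per3 from -0.12 to 0.30. Among members and the other genes followed here, no sign turned under quantile normalization or equal array medians, which moved the median of all genes to 0.041 and 0.083.

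The number of clock output genes that fell was 0 in place of 1 with the mean of kept probe sets and with no filter, and 0 to 1 when 1 array was left out, while those that rose were 0 to 1 (Elovl3, without bitransgenic replicate 2). Other clock genes that fell numbered 0 to 1 (Prkaa2, without wild type replicate 2). The cause of these moves was not tested.

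Arrays of the 2 genotypes share replicate numbers 1 and 2 in the labels, and their deviations from the group means correlated at 0.34 over the kept probe sets, but with 2 pairs nothing in the labels says that the numbers pair the animals. With replicate number as a block, 0 members passed. Dbp had an adjusted p of 0.152 and Clock of 0.193, and Fmo2 kept its call (adjusted p = 0.028).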
